A study of Rattus norvegicus with 6 samples.

Results

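Matricellular proteins are secreted into the extracellular matrix, where they act mainly as signals to cells and as modifiers of growth factors rather than as load-bearing fibres. They bind collagens, integrins and growth factors such as TGF-beta, and in muscle and connective tissue they are known from development, repair and fibrosis. Of the genes described here, Thbs1, Thbs2, Postn, Tgfbi, Cilp, Sparc, Tnc, Fn1 and Spp1 encode matricellular, adhesive or cartilage-type matrix proteins. Nrep encodes an intracellular protein tied to TGF-beta. These 10 genes were chosen by name, with earlier results of these data known. The platform annotation names a probe set, meaning several short probes to 1 transcript summarised into a single signal, for 8 of them, out of 18166 named genes. Thbs1 and Tnc are not named by the annotation used here and have no values below. Each of the 8 had 1 probe set of its own, and all 8 passed a filter on mean signal that 11540 of the 18166 genes passed. The filter asks for a mean log2 intensity over all libraries at or above 6.74, the median of all deposited values, and each of the 8 was above that level in every library.

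RNA was measured on Affymetrix Rat Gene 2.0 ST arrays in cultured stem cells obtained from the skeletal muscle of male rats by plating. The 6 libraries, with 1 array each, are 2 controls, titled high glucose control and low glucose control, the serum libraries LZ serum and OZ serum, and the lipid libraries cholesterol and fatty acid. The cholesterol cells received 100 mg/dl cholesterol carried by cyclodextrin, and the labels name sodium palmitate as the other lipid, with no dose. The sources used here give no strain, age, treatment time or glucose concentration, and do not say what LZ and OZ stand for, whether the controls held cyclodextrin, or which control belongs to which lipid. Each lipid library was therefore read against both controls. Without replicates no value carries an error and nothing could be tested, so the differences below are between single libraries. Having 1 array per group is what limits their precision.

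Genes were called where they differed by 2-fold or more, in the same direction, from each library they were set against, and each difference against both controls is the smaller of the pair on the log2 scale. Median intensity ran from 104.6 to 109.2 across the arrays. The pair of libraries closest to each other, the high glucose control and LZ serum, differed by a median of 0.077 log2 units over the 11540 genes, and the controls differed from each other by 0.14. As to the labelled cell type, of 8 myogenic markers only Pax7 and Des passed the signal filter, while Myod1, Myf5 and Myog did not. Pax7 ran from log2 6.90 in the high glucose control to 7.26 with fatty acid. Des ran from log2 6.83 with LZ serum to 7.05 with cholesterol. Both lay just above the filter level, so passing it does not show that Pax7 or Des was expressed. Of 12 markers of mesenchymal and fibro-adipogenic progenitors, 11 had a probe set and 9 passed the filter, among them Pdgfrb, Thy1 and Prrx1. In bulk RNA, fewer cells of a type and less RNA per cell cannot be told apart.

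**Figure D1:**
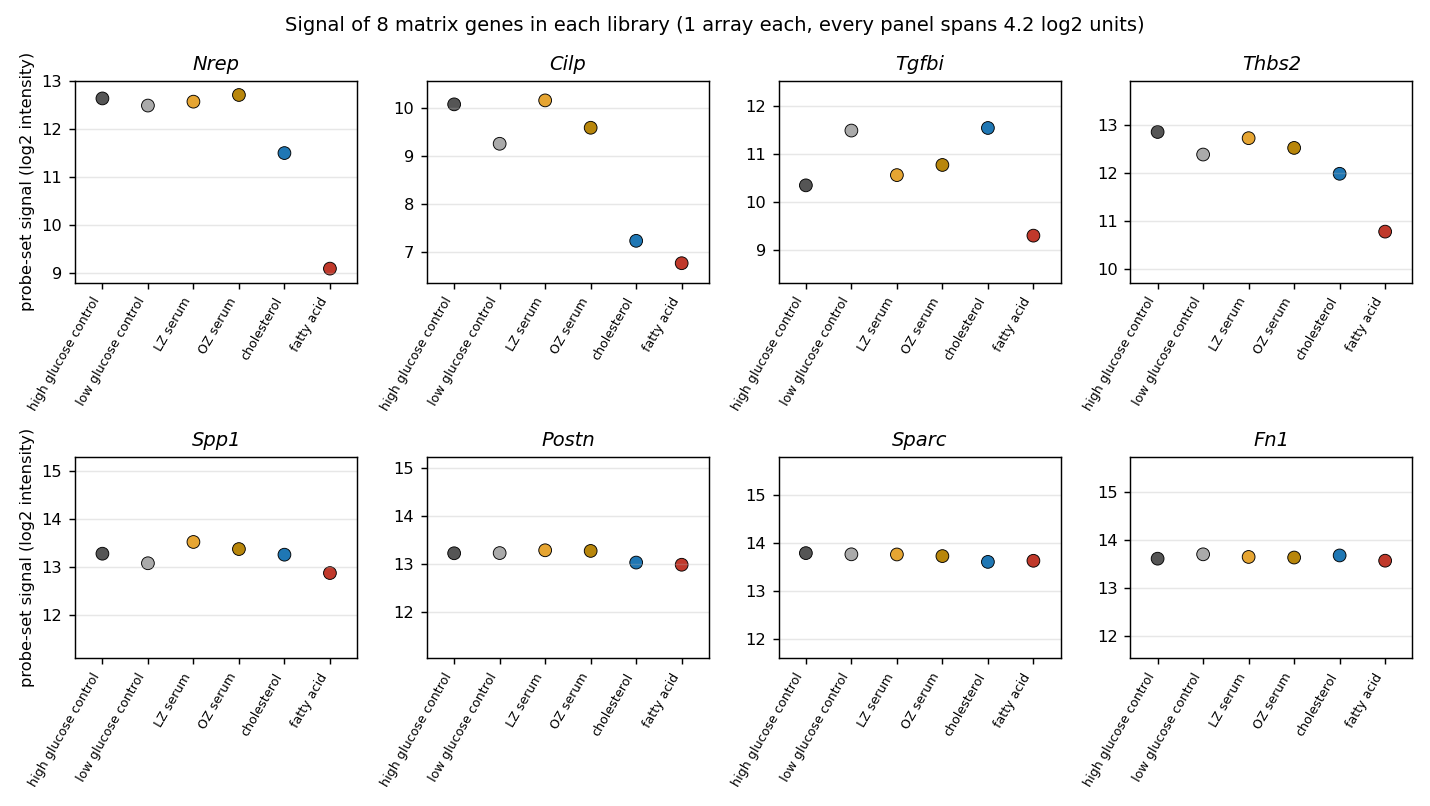
Signal of each gene (log2 intensity, vertical axis) in the 6 libraries (horizontal axis, 1 point per array), with every panel spanning the same log2 width. All genes but Sparc, which is lowest with cholesterol, are lowest in the fatty acid library. In each panel of Spp1, Postn, Sparc and Fn1 the points lie within 0.65 log2 units of each other.

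The 8 genes separated into 4 that differed widely between libraries and 4 that hardly differed. From the lowest to the highest library, Nrep spanned 12.3-fold, Cilp 10.5-fold, Tgfbi 4.74-fold and Thbs2 4.22-fold. Spp1 spanned 1.57-fold, Postn 1.23-fold, Sparc 1.14-fold and Fn1 1.10-fold. In the fatty acid library, 4 of the 8 were at least 2-fold below both controls, where 2.01% of all genes tested were. In the cholesterol library 1 of the 8 was, Cilp, against 0.806% of all genes. No member was 2-fold higher than both controls in either lipid library, where 0.381% of all genes were with cholesterol and 0.641% with fatty acid. Because the members were chosen with earlier results of these data known, setting their counts beside these shares tests nothing.

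Thbs2 (probe set 17628839) encodes thrombospondin-2, a secreted glycoprotein that restrains angiogenesis, regulates collagen fibril assembly and binds the receptors CD36 and CD47. Its intensity was 7423 in the high glucose control, 5360 in the low glucose control, 6789 with LZ serum, 5899 with OZ serum, 4059 with cholesterol and 1760 with fatty acid. Both lipid libraries lay below the other 4, and the fatty acid library was the lowest by a wide gap. Thbs2 with fatty acid was 4.22-fold below the high and 3.04-fold below the low glucose control. With cholesterol it was 1.83-fold and 1.32-fold below them, which is under the 2-fold threshold.

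Postn and Tgfbi are related proteins built from fasciclin domains, and they bind integrins and collagen. Periostin, encoded by Postn (probe set 17738503), takes part in collagen assembly in tendon, bone and healing tissue, and Tgfbi was first known as a gene induced by TGF-beta. The 2 genes did not move alike. Postn intensity ran from 8118 with fatty acid to 10002 with LZ serum, and both lipid libraries, at 8377 with cholesterol, lay below the other 4. On the log2 scale, cholesterol differed from the high and low glucose controls by -0.19 and -0.20, and fatty acid from each of them by -0.24.

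Tgfbi (probe set 17717992) was the only member above both controls with cholesterol, by a small margin over the low glucose control. With fatty acid it was below both. Its intensity was 1299 in the high glucose control, 2865 in the low glucose control, 1506 with LZ serum, 1743 with OZ serum, 2974 with cholesterol and 628 with fatty acid. The cholesterol library and the low glucose control were high, the high glucose control and both serum libraries were intermediate, and the fatty acid library was the lowest. With fatty acid, Tgfbi was 2.07-fold below the high and 4.56-fold below the low glucose control, so its call in that comparison lies just past the threshold (log2 difference -1.05). With cholesterol it was 2.29-fold above the high glucose control, but only 1.04-fold above the low one, and that small difference turned to -0.0085 when arrays were centred on their medians. For this gene the cholesterol library was therefore high against 1 control and level with the other.

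Cilp (probe set 17845173), cartilage intermediate layer protein, is a secreted matrix protein of cartilage that can bind TGF-beta and is also made by fibroblasts. Its intensity was 1080 in the high glucose control, 611 in the low glucose control, 1143 with LZ serum, 770 with OZ serum, 150.4 with cholesterol and 108.8 with fatty acid. Both lipid libraries were far below the other 4 and close to each other. Cilp was 7.18-fold and 4.06-fold below the high and low glucose controls with cholesterol, and 9.92-fold and 5.62-fold below them with fatty acid. It ranked number 7 from the lowest of 11540 genes in the first comparison and number 12 in the second. The fatty acid signal, log2 6.77, lay next to the filter level of 6.74, so the size of that fold is less certain than the direction. With an offset of 32 added to every intensity, the log2 differences were -1.82 with cholesterol and -2.19 with fatty acid.

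Markers of cartilage cells were read beside Cilp. Of 10 chondrocyte markers, 9 had a probe set and 6 passed the filter, and Acan, Matn3 and Col9a1 did not. Their summed intensity was 1277 and 1255 in the high and low glucose controls, 1249 and 1174 with LZ and OZ serum, 1230 with cholesterol and 1218 with fatty acid. None of the 6 that passed reached 2-fold in any of the 6 comparisons. The nearest was Chad, at a log2 difference of 0.99 between cholesterol and fatty acid. Signals of the 6 ran from log2 6.74 for Snorc to 8.20 for Chad, both with cholesterol, beside a filter level of 6.74.

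Nrep (probe set 17725368), also called P311, is a small intracellular protein known from regenerating nerve, smooth muscle and wound myofibroblasts, where it raises translation of TGF-beta; it is not itself a matrix protein. Its intensity was 6377 in the high glucose control, 5753 in the low glucose control, 6087 with LZ serum, 6701 with OZ serum, 2897 with cholesterol and 546 with fatty acid. The controls and the serum libraries lay close together, the cholesterol library was intermediate, and the fatty acid library was far below. With fatty acid, Nrep was 11.7-fold and 10.5-fold below the high and low glucose controls, number 2 from the lowest of 11540 genes. With cholesterol it was 2.20-fold and 1.99-fold below them, just short of the threshold on the low glucose side (log2 difference -0.99). When arrays were centred on their medians, Nrep reached 2-fold against both controls with cholesterol as well.

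The other 3 members are an adhesive glycoprotein, a collagen-binding protein and a phosphoprotein, and none reached 2-fold between any libraries. Fn1 (probe set 17865301), fibronectin, through which integrins attach cells to the matrix, ran from 12118 with fatty acid to 13285 in the low glucose control. Sparc (probe set 17656316), also called osteonectin, a collagen chaperone that loosens cell adhesion, ran from 12449 with cholesterol to 14130 in the high glucose control. Both lipid libraries lay below the other 4 for Sparc, by at least 0.16 log2 units below the controls with cholesterol and 0.13 with fatty acid. After cyclic loess, Sparc with fatty acid no longer lay below OZ serum. The differences from the high glucose control were then -0.102 with fatty acid and -0.105 with OZ serum. Spp1 (probe set 17692849), osteopontin, a ligand of CD44 and of integrins that is also made by macrophages, ran from 7460 with fatty acid to 11688 with LZ serum. Its intensity of 9727 with cholesterol lay between the controls, at 9866 and 8593.

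Macrophage markers are given beside Spp1. Of 9 such markers, 7 had a mean below the filter, among them Ptprc, Csf1r and Itgam, and Cd68 and Cd14 passed. The summed intensity of the 9 was 1226 and 968 in the high and low glucose controls, 1246 and 1100 with LZ and OZ serum, 1817 with cholesterol and 845 with fatty acid. Cd68 and Cd14, the markers that passed, were highest with cholesterol, at log2 8.37 and 10.13. Of those below the filter, Csf1r and Adgre1 were also highest with cholesterol. Ptprc, Itgam and Aif1 were highest with OZ serum, and Cd163 and Mrc1 with fatty acid. The part of macrophages in the Spp1 signal was not tested.

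These near-level genes were read at the top of the measuring range. Fn1 stood at 66.6% to 73.9% of the highest intensity on its array, Sparc at 68.5% to 78.8%, Spp1 at 41.0% to 65.5% and Postn at 44.6% to 56.1%. Of 66 genes with a mean log2 intensity of at least 13, which include these 4, none reached 2-fold in any of the 6 comparisons. Between log2 11 and 13, where Thbs2 and Nrep lie, 3.17% of 1232 genes were at least 2-fold from both controls with fatty acid, and between 9 and 11, where Tgfbi lies, 3.03% of 4361 genes were. The part of the measuring range in the small differences of Fn1, Sparc, Postn and Spp1 was not tested, and the small spread of their signals does not show that their RNA was level.

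**Figure D2:**
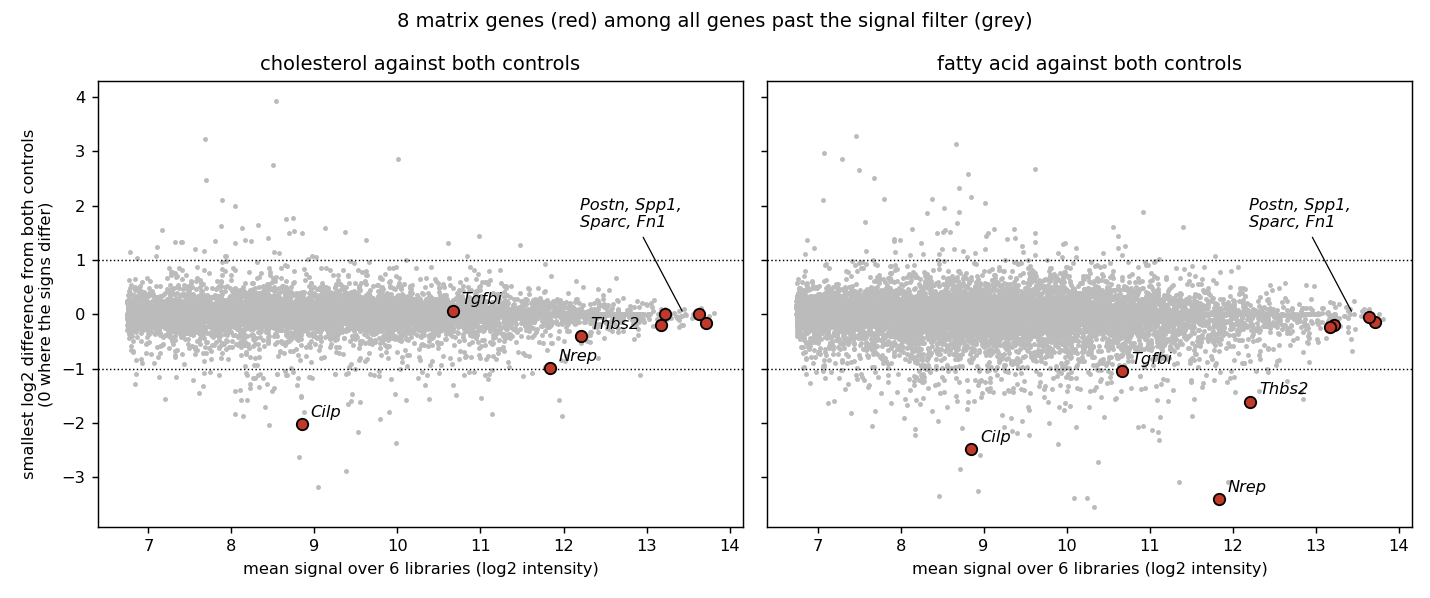
Smallest log2 difference from both controls (vertical axis, 0 where the signs differ) against mean log2 intensity over the 6 libraries (horizontal axis) for cholesterol (left) and fatty acid (right), with the 8 genes in red and all 11540 genes in grey. Dotted lines mark 2-fold, and beyond log2 13 no gene lies outside them.

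Among members with a probe set, only Nrep, Tgfbi and Sparc had a listed upstream window with bases outside the annotated gene. Upstream sequences are therefore shown for these 3, whatever their expression. They are from RefSeq on build GRCr8, all on the minus strand, written 5′ to 3′ and ending next to the annotated gene, at chr18:25320743-25320992 for Nrep, chr17:7990235-7990363 for Tgfbi and chr10:40038817-40039066 for Sparc. Capitals mark the SMAD element CAGAC, or GTCTG where it lies on the other strand, and the Sp1 box GGGCGG. SMAD proteins carry the TGF-beta signal to DNA.
Nrep: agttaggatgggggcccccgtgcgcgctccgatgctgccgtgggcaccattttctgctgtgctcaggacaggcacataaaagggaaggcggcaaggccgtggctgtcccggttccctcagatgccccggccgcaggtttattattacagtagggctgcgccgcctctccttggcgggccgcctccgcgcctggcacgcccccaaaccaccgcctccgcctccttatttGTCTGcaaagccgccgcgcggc
Tgfbi: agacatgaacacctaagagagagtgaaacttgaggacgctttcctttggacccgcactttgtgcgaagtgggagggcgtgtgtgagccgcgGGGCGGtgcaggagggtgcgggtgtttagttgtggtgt
Sparc: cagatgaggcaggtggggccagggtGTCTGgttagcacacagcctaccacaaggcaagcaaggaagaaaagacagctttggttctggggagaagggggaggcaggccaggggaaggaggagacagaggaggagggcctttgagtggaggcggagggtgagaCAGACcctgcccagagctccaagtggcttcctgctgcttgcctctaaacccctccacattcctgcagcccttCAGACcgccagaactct

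Promoter windows were found for 8 of the 10 genes, Thbs2 and Fn1 excepted. The windows of Cilp, Postn and Spp1 lie wholly inside the annotated span of the gene, and those of Tgfbi and Tnc reach into it, with 129 and 184 of the 250 bases outside. In the 250 bases of each window before the listed start, searched on both strands, Sparc held CAGAC 3 times, Cilp 2 times, Nrep, Postn, Spp1 and Tnc once each, and Tgfbi and Thbs1 not at all. Of all 33469 promoters, 42.9% held it. The AP-1 site TGANTCA was in none of the 8 windows and in 6.34% of all promoters, and the CArG box, which serum response factor binds, was in none of the 8 and in 1.5% of all. Tgfbi held GGGCGG 2 times, 1 of them in the stretch printed, and 30.5% of all promoters held it. A match describes letters in this window only.

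The fatty acid comparison asks how cells given palmitate differed from control cells. All 8 genes were lower than both controls by some amount, where 39.7% of all genes were and 40.4% were higher, although Fn1 was lower by only 0.042 log2 units than the high glucose control and higher by 0.015 after cyclic loess. At 2-fold, Nrep, Cilp, Thbs2 and Tgfbi were lower, and none was higher, beside 2.01% lower and 0.641% higher over all genes. The median difference of the 8 was -0.73 against the high and -0.92 against the low glucose control, where the median of all genes was 0.0077 and -0.0030. A call needs 2-fold from each control, so these 4 calls hold against each control alone by definition. The same 4 genes were called when both serum libraries were added to the controls as references. The summed intensity of 11 mesenchymal progenitor markers moved the same way, with 33819 in the fatty acid library, 46408 and 39108 in the high and low glucose controls and 41326 with cholesterol, and its part in these differences was not tested.

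In the cholesterol library 5 of the 8 genes were below both controls by some amount, beside 33.6% of all genes, and Tgfbi was above both by the margin given for it, beside 36.3%. Fn1 and Spp1 lay between the controls. The median difference of the 8 was -0.19 against the high and -0.18 against the low glucose control, beside 0.012 and 0.0018 over all genes. Cilp was called in both lipid comparisons, Nrep and Thbs2 were lower in both and called with fatty acid, and Tgfbi was called with fatty acid. Both comparisons use the same controls, so the values stand side by side and their likeness is not a result.

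**Figure D3:**
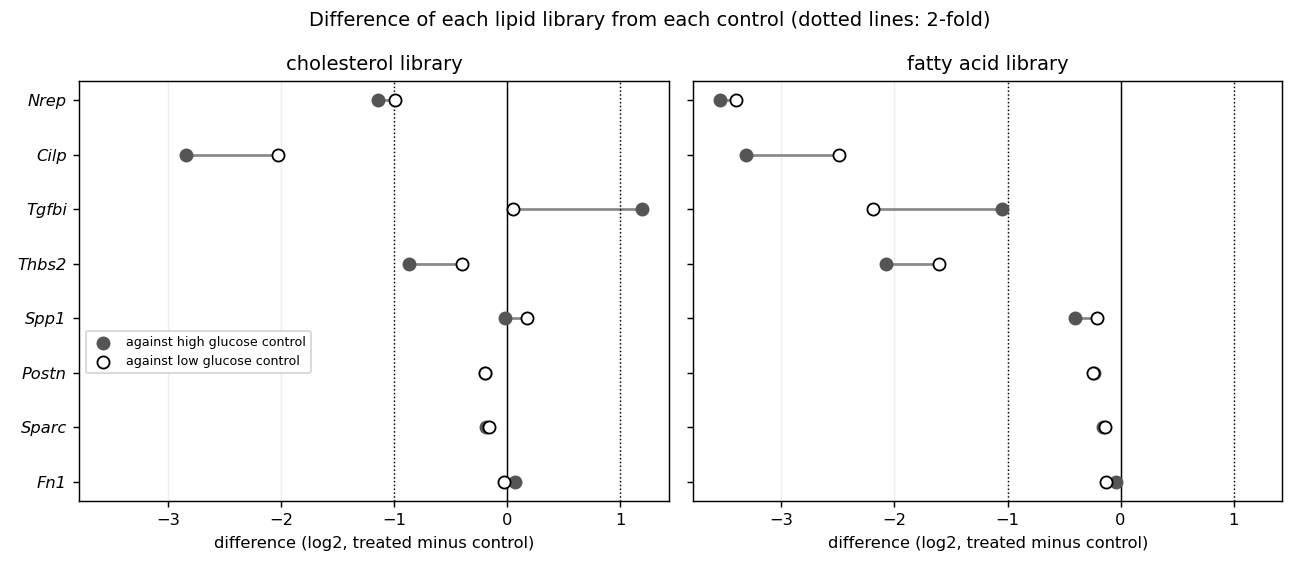
Log2 difference of the cholesterol (left) and fatty acid (right) library from the high glucose control (filled points) and the low glucose control (open points) for each gene, with dotted lines at 2-fold. The points of Tgfbi with cholesterol lie at 1.20 and 0.054, and those of Nrep with fatty acid at -3.55 and -3.40.

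Set directly against each other, the cholesterol library was at least 2-fold above the fatty acid library in 3 of the 8 genes, where 1.92% of all genes were. Nrep was 5.31-fold higher with cholesterol, number 5 from the highest of 11540 genes, Tgfbi was 4.74-fold higher, number 11, and Thbs2 was 2.31-fold higher. Cilp, low in both, was 1.38-fold higher with cholesterol. Spp1 was 1.30-fold higher, and Fn1, Postn and Sparc were within 1.08-fold.

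The controls differed by 2-fold at 1 of the 8 genes, beside 0.355% of all genes. Tgfbi was 2.21-fold lower in the high than in the low glucose control, number 7 from the lowest of 11540 genes, and 0.104% of all genes were at least 2-fold lower. Cilp was 1.77-fold higher in the high glucose control and Thbs2 1.39-fold higher, both short of the threshold. Nrep, Spp1, Fn1, Sparc and Postn were within 1.15-fold.

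Between OZ and LZ serum none of the 8 reached 2-fold, and 0.026% of all genes did. Cilp had the widest difference, 1.48-fold lower with OZ serum, and Tgfbi was 1.16-fold higher with it. Against both controls, neither the 8 genes nor any other of the 11540 reached 2-fold in both serum libraries (0% of genes). Tgfbi was 1.90-fold below the low glucose control with LZ serum and 1.64-fold below it with OZ serum, and 1.16-fold and 1.34-fold above the high glucose control. Cilp was 1.87-fold above the low glucose control with LZ serum and 1.26-fold above it with OZ serum, and against the high glucose control it was 1.06-fold above with LZ and 1.40-fold below with OZ serum. At both genes the controls themselves differed, as given for them. Spp1 was the member farthest above both controls with both sera, by at least 0.097 log2 units.

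The closest patterns to the 4 widely varying members were sought over all 6 libraries, as the root mean square distance between log2 values after centring each gene on its own mean. Closest to Nrep was Hapln1, a link protein of the hyaluronan matrix, at 0.11 log2 units, followed by Tenm3, a teneurin of the cell surface, at 0.17 and Vegfd, a lymphangiogenic growth factor, at 0.20. Closest to Thbs2 were Rerg, a Ras-like GTPase, at 0.094, Fgf1, an acidic fibroblast growth factor, at 0.10 and Spink8 at 0.11. Cilp had no neighbour as close, with Lhfpl3 at 0.24, Itm2a at 0.28 and Pdgfd, a platelet-derived growth factor, at 0.31. Closest to Tgfbi were Wnt4, a secreted Wnt ligand, at 0.24, Lrrc15 at 0.31 and the transcription factor Atoh8 at 0.32. Among the members, Nrep and Cilp were 0.67 apart and Nrep and Thbs2 0.63, so none of the widely varying members was as close to another as to these genes. Distances over 6 arrays without replicates describe these libraries only.

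Other genes of the same pathways were read from 7 lists, the 8 members left out. The lists too were chosen with earlier results of these data known, and some genes stand in more than 1 list. The counts below stand beside these shares of all 11540 genes: with fatty acid 39.7% were lower than both controls by any amount, 40.4% higher, 2.01% at least 2-fold lower and 0.641% at least 2-fold higher. With cholesterol the shares were 33.6%, 36.3%, 0.806% and 0.381%, in the same order. In the list of thrombospondin and CCN relatives, 7 of 9 genes were measured and passed the filter. With fatty acid, 2 of the 7 were at least 2-fold lower and none at least 2-fold higher, beside 2.01% and 0.641% of all genes, with list medians of -0.085 and -0.33 against the high and low glucose controls. These were Ccn5, a growth-restraining member of the CCN family, at 3.73-fold, and Ccn3, with a log2 difference of -1.59. With cholesterol none of the 7 was called. Of 11 other matricellular genes that passed, Smoc2, a calcium-binding relative of Sparc, was 2.91-fold lower with fatty acid, and Lgals3, the galactose-binding lectin galectin-3, was 2.72-fold higher with cholesterol. Aspn, asporin, was 3.21-fold higher in the high than in the low glucose control and lay between the controls with fatty acid.

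In the list of cartilage-type matrix 13 of 22 genes passed, and with fatty acid 2 were at least 2-fold lower, Hapln1 (10.4-fold) and the fibrillar collagen gene Col11a1 (2.63-fold). The list's medians, -0.051 and -0.059, stand beside 0.0077 and -0.0030 over all genes. Hapln1 was also 2.26-fold lower with cholesterol. The list of elastic fibre, basement membrane and adhesive glycoproteins had 23 genes past the filter. With fatty acid 22 of them lay under each control, beside 39.7% of all genes, and 7 of these reached 2-fold, beside 2.01%, with medians of -0.80 and -0.91. The largest were Lama4, a laminin chain of vessel and muscle basement membranes (4.22-fold), Nid2, a nidogen (2.95-fold), Fbln2, a fibulin (2.41-fold), and Mfap4, a microfibril protein (2.38-fold). With cholesterol 15 of the 23 were lower and 2 were called, Egflam (2.42-fold) and Lama4 (2.08-fold). Egflam's signals, log2 5.92 with cholesterol and 7.26 and 7.20 in the controls, lay around the filter level, so its fold is uncertain.

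**Figure D4:**
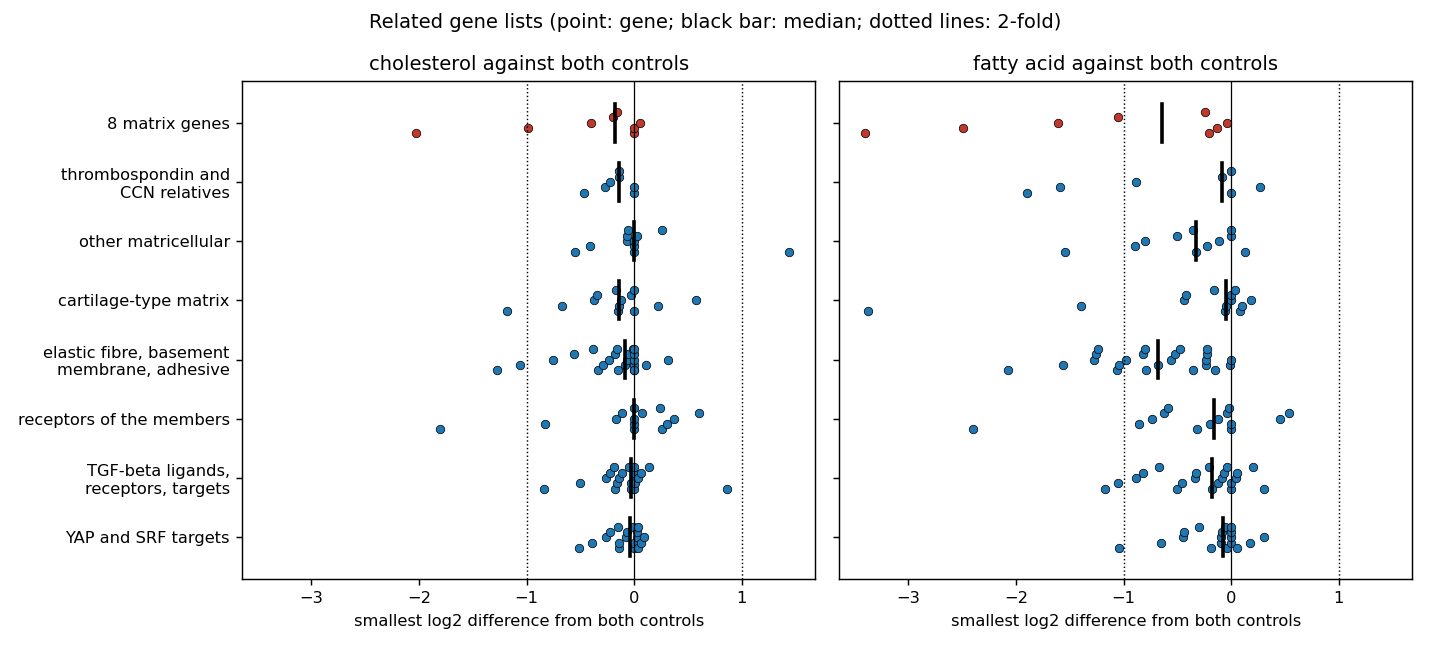
Smallest log2 difference from both controls (horizontal axis) for the 8 genes (red) and for genes of 7 related lists past the signal filter (blue), with cholesterol (left) and fatty acid (right). Black bars are medians of these smallest differences, dotted lines mark 2-fold, and the elastic fibre and basement membrane list has 22 of 23 genes below 0 with fatty acid.

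Of 14 receptors of these proteins that passed, 10 were lower and 2 higher with fatty acid, beside 39.7% and 40.4% of all genes. Among them Itga8, the integrin subunit that binds fibronectin and osteopontin, was at least 2-fold lower (5.26-fold), as it was with cholesterol (3.49-fold). The medians of the receptors were -0.33 and -0.18 with fatty acid and 0.016 and 0.25 with cholesterol, where the first was -0.027 after median centring. Of 21 TGF-beta ligands, receptors, feedback genes and targets, 15 were lower and 4 higher with fatty acid, beside the same shares, and the ligand Tgfb2 (2.26-fold) and the collagen gene Col3a1 (2.07-fold) were called, with medians of -0.17 and -0.21. With cholesterol 12 were lower, 5 higher and none called. YAP and SRF are factors that answer to cell tension and the actin cytoskeleton. Their list had 18 genes past the filter, which include Yap1, Wwtr1, Tead1 and Srf besides targets. With fatty acid 11 of the 18 were lower and 3 higher, beside the same shares. Actg2, the smooth muscle actin, was called (2.06-fold), and the list medians were -0.073 and -0.22.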

How the data were processed

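Each of the 6 arrays is a group of its own, named by its title. The deposited values are probe-set intensities on a linear scale, and how the authors summarised, background-corrected and normalized them is not given in the sources used here. Array medians lay between 104.6 and 109.2 and the 95th percentile between 2223 and 2288, so the arrays were treated as scaled already, and unequal total RNA could not be seen. Log2 was taken without an offset.

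Of 36685 probe sets, the platform annotation gives 1 gene for 18511, several for 575 and none for 17599; only the first were used, with symbols updated by Entrez identifier from RefSeq (GRCr8). A gene with several probe sets took the one with the highest mean. Motifs were matched as exact letters.

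The members and gene lists were chosen with earlier results of these data known. Named genes are the members, up to 4 genes of each list per comparison at 2-fold or more, and for each of the 4 members with the widest range the 3 genes closest in pattern, symbols that are only provisional passed over; markers and the genes of filter statements are examples from fixed lists. The groups by mean signal were set after seeing the data. The rule for calls was checked on simulated data. Alternatives were quantile normalization, median centring, cyclic loess, other filters, probe-set means, a 1.5-fold threshold, an offset of 32 and other reference libraries. Python 3.11.15 (numpy 2.4.6, pandas 2.3.3, matplotlib 3.10.9) and R 4.3.3 (limma 3.58.1) were used.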

Additional observations from a re-analysis of the deposited data

How the results depend on the processing

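The 4 fatty acid calls, the 3 calls of cholesterol against fatty acid and the absence of calls in both serum comparisons were the same in number under every alternative run. For the fatty acid calls, a 1.5-fold threshold, 1 control alone or the mean of the controls could not have removed a call. The count for cholesterol against both controls, 1 gene (Cilp), was 2 (Cilp and Nrep) with median centring, with a 1.5-fold threshold and against the mean of the controls, and 3 against the high glucose control alone (Cilp and Nrep lower, Tgfbi higher). The count between the controls, 1 gene (Tgfbi), was 2 at 1.5-fold (Tgfbi and Cilp). These follow from Nrep at -0.99 and from the unlike controls. Of the recomputed differences of single members, 304 stayed within 0.17 log2 units and 16 moved beyond. This limit is the spread between the controls over all genes divided by the square root of 2. The 304 include those from probe-set means, which could not move a member with 1 probe set. They also include differences from the nearer control alone, which repeat the main value wherever both controls gave the same sign. No called difference changed sign. With median centring, the median difference of all genes was -0.10 for OZ serum against the low glucose control, the farthest from 0 of any scaling run. No paired analysis was possible because each group has 1 array. With 1 array per group no replicate could be left out. The part of the measuring range in the small differences of Fn1, Sparc, Postn and Spp1 was not tested, which limits what can be said of them.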
